A study of Rattus norvegicus with 2 samples.

Results

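The genes described here are the cell cycle and DNA replication genes measured in primary rat hepatocytes with and without triiodothyronine (T3), the active thyroid hormone. They were chosen by name from the gene symbols of the array annotation: cyclins of types A, B, D, E, F and G, Cdk and Cdkn genes, Mcm2 to Mcm7, Cdc genes other than Cdc42, E2f, Rfc, Chtf and Aurk genes, and a short list that adds Pcna, Top2a, Mki67, Plk1, Bub1, Bub1b, Rrm1, Rrm2, Tyms and Gins1. This gave 95 genes with 135 probe sets, of 13509 genes and 31038 probe sets in all. The rule reads symbols and not signals.

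Messenger RNA was measured with Affymetrix Rat Genome arrays, on which each probe set is a group of short oligonucleotides for 1 transcript. The T3 group was 1 array from hepatocytes of male SD rats given T3 at 1 nM for 24 h. The control group, named as control in its sample title, was 1 array from the same kind of culture, taken as without T3. The treatment note of this sample also names T3. Both cultures grew on collagen-coated plates in a basal hepatocyte medium that contained growth factors. The labels do not say how many animals gave the cells. With 1 array per group no difference was tested, no p-value is given, and the spread between cultures is unknown.

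Cells divide by passing through a fixed order of phases, driven by cyclins bound to cyclin-dependent kinases (Cdks) and held back by Cdk inhibitors. In G1 phase the Mcm proteins are loaded at replication origins, in S phase a sliding clamp and its loaders hold the polymerases on DNA, and in mitosis Aurora and Polo kinases build the spindle until the anaphase promoting complex ends the phase. Hepatocytes of an adult liver rest outside the cycle and re-enter it after tissue loss, and T3 is known to stimulate their proliferation in living rats. E2F factors drive many S-phase genes, and mitotic genes are often switched through a cell cycle homology region (CHR).

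These control elements could be read from the promoters of part of the genes. RefSeq promoter windows of build GRCr8, from 250 bases before to 50 bases after the annotated start, were held for 75 of the 95 genes, in 80 windows. They were searched on both strands for the E2F words TTTCCCGC, TTTGGCGC, TTTCGCGC and TTTGCCGC and for the CHR word TTTGAA. The windows below are shown because they belong to genes whose ratios stand out in their role group or represent it, and they were picked with the ratios known. Capitals mark the E2F words in the windows of Gins1, Mcm7 and Rfc3.
Gins1 (chr3:160184670-160184969, plus strand): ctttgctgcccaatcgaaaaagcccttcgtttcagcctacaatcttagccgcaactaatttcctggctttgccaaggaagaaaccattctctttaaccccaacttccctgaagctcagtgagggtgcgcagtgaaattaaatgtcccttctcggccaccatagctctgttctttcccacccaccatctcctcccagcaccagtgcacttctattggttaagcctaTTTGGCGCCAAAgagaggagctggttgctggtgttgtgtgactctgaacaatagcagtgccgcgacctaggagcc
Mcm7 (chr12:22163129-22163428, minus strand): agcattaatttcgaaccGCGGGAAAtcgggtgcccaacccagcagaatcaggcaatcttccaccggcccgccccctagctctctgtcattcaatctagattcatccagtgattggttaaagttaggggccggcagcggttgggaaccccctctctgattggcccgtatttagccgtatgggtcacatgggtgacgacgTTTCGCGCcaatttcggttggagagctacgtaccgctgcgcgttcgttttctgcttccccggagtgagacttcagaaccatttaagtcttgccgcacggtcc
Rfc3 (chr12:5836318-5836617, plus strand): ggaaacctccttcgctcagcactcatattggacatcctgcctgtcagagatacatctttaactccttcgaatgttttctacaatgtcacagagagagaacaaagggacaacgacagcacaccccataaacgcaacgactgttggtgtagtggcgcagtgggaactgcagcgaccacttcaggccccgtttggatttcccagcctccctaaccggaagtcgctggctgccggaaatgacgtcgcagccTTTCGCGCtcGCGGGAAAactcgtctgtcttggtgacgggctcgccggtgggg
In the next windows, of mitotic genes, capitals mark the CHR word, read on the opposite strand in Top2a.
Cdc20 (chr5:137255750-137256049, minus strand): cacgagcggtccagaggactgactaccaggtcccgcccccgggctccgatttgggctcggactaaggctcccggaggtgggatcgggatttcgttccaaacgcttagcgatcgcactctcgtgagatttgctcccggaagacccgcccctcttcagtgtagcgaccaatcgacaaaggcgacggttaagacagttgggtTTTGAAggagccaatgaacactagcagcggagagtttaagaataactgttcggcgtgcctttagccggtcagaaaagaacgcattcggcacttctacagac
Plk1 (chr1:186147408-186147707, plus strand): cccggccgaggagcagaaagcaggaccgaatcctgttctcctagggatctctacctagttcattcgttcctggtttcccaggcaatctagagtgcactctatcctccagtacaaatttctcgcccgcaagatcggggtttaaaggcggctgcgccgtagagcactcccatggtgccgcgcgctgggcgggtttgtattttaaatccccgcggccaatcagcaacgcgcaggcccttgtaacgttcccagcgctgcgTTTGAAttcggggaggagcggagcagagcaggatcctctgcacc
Top2a (chr10:84473044-84473343, minus strand): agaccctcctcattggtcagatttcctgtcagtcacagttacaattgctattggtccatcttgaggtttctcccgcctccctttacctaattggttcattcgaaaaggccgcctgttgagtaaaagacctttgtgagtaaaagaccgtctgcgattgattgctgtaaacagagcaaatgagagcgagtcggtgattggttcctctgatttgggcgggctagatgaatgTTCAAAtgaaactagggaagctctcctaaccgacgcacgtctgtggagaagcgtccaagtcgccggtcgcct

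The E2F words in the Gins1 window overlap each other on opposite strands, starting 25 and 21 bases before the start site. An E2F word was found in 6 of the 7 genes of licensing and origin firing with a window, against 2.37% of all 27457 genes searched. Over all members it was found in 11 of 75 genes, or 14.7%. The CHR word was found in 12 of the 75 members and in 19.4% of all genes, so its share among the members was no higher than the background. The mitotic genes with the word were Bub1b, Mki67, Plk1 and Top2a, 4 of the 7 with a window. The half-site AGGTCA, which thyroid hormone receptors can bind, was found in 7 of the 75 genes, or 9.33%, and in 16.9% of all genes. A match of letters is a description of the sequence and does not show that a factor binds there. Some genes lacked a window and were not searched, among them Cdkn1c, Mcm4, Rrm2, Ccnd1 and the E2f genes.

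Most of the cell cycle genes, like most detected genes on the arrays, had nearly the same signal with and without T3. A probe set was taken as detected when the authors' software called it present on at least 1 array, and each gene was represented by its detected probe set of highest geometric mean signal. By this rule 88 of the 95 genes were detected, 85 of them by a probe set present on both arrays. The ratio of T3 to control signal lay within 1.25-fold in 78 of the 88 and in 8327 of all 9670 detected genes. At least 1.5-fold higher were 2 members, the mitotic kinase gene Aurka and the Cdk inhibitor gene Cdkn1c. These 2 are 2.27% of the detected members, beside 2.79% of all 9670 detected genes (270 genes) past the same threshold, so the share is near the background. No member was at least 1.5-fold lower, where 1.68% of all detected genes were.

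The median log2 ratio of T3 over control was 0.04 over the 88 genes and 0.00 over all detected genes. A ratio above 1 was found in 54 of the 88 (61.4%) and in 4839 of all 9670 detected genes. Under the name rule 24 genes had several detected probe sets. The highest and the lowest log2 ratio of the same gene lay 0.22 apart at the median, although both were measured on the same RNA. In 65 of the 88 genes the log2 ratio was no larger than this, and the same count over all detected genes was not made. Cells of the cultures were measured in bulk, so a change in the number of cells in the cycle and a change in RNA per cell cannot be told apart.

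**Figure D1:**
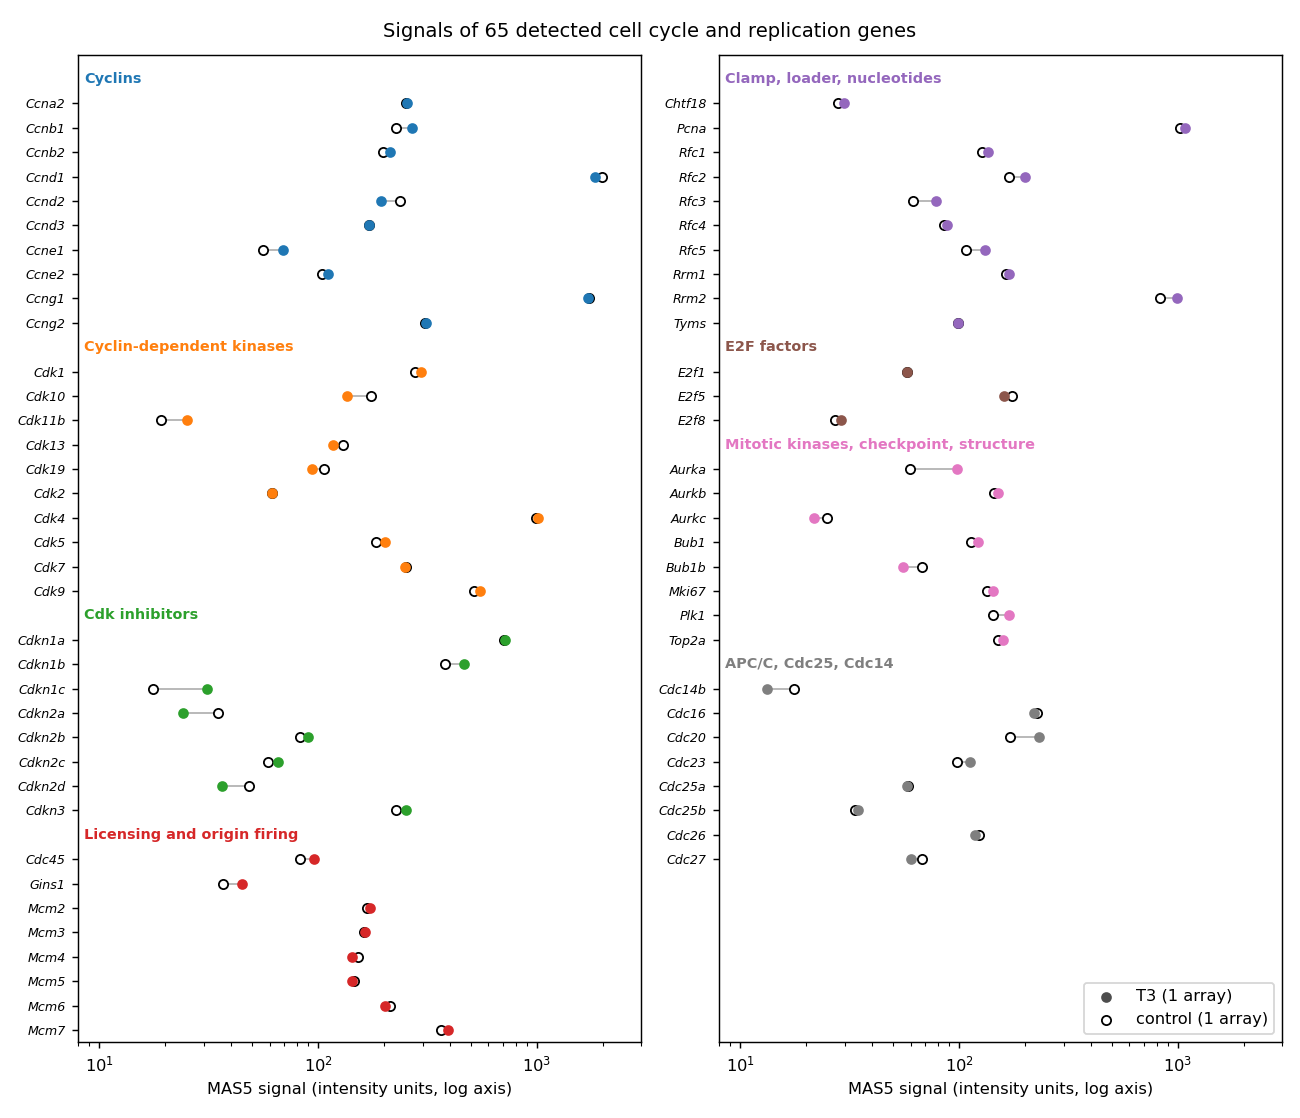
MAS5 signal (x axis, intensity units, log scale) of 65 detected cell cycle and replication genes, by role; filled points are the T3 array, open points the control array, and 1 probe set stands for each gene. The points of most genes overlap or nearly so, and Aurka and Cdkn1c show the widest gaps, with T3 to the right. Signals of different genes are not comparable as levels.

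On the arrays as a whole, 17264 probe sets were called present with T3 and 17592 in control, and 59.1% were present on at least 1 array, against 88.1% (119 of 135) of the member probe sets. Hepatocyte markers were detected for all 7 of the 8 listed that had a probe set, and summed to 12606 units with T3 and 13318 in control. Of the bile duct markers all 5 had a probe set and 3 were detected (Krt19, Krt7 and Epcam), while Sox9 and Spp1 were not. The detected ones had sums of 2457 and 2805 units with T3 and in control. Of the stellate cell and fibroblast markers 6 of 7 were detected, with sums of 1624 units with T3 and 1801 in control, mostly Vim (1418 with T3 and 1621 in control). Acta2 and Des had ratios of 1.21 and 1.22. Of the dim probe sets, Col3a1 had a ratio of 1.22, Col1a1, absent in control, of 0.888, and Lrat of 0.532. Of the leukocyte markers 5 of 6 had a probe set and 1 was detected, Cd163, at 7.64 units with T3 and 4.79 in control. Of the endothelial markers 4 of 5 had a probe set and 0 were detected. Whether the markers outside the hepatocyte list came from other cells was not tested. Nor was it tested which cells carried the cell cycle transcripts.

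Cyclins, the activating subunits of the Cdks, were near equal in both cultures. Of 11 cyclin genes 10 were detected, 6 of them above a ratio of 1 and 4 below, with log2 ratios of -0.29 to 0.30 and a median of 0.01. The D-type cyclin gene Ccnd1, which carries growth factor signals into the cycle, was read by 3 probe sets. Their signals were 1840, 1582 and 1267 with T3, against 1988, 1583 and 1177 in control. The ratios of 0.926, 0.999 and 1.08 fall on both sides of 1, so Ccnd1 gave no common direction.

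The lowest ratio among the cyclins was that of another D-type gene, Ccnd2, with a signal of 194 with T3 and 237 in control, 0.817 times control. Ccnd3 was at 171 on both arrays. At the other end, Ccne1, whose protein starts S phase with Cdk2, had a signal of 69.0 with T3 and 56.0 in control, a ratio of 1.23. The mitotic cyclin gene Ccnb1 was higher in both of its probe sets, at 270 and 217 with T3, against 226 and 193 in control. Ccnb2, the other B-type cyclin of mitosis, had a ratio of 1.07, and Ccna2, the cyclin of S phase and early mitosis, of 1.01. Ccng1, a known p53 target, was at 1704 with T3 and 1737 in control, and Ccng2 at 309 on both arrays. Ccna1 was absent on both arrays.

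The kinases that cyclins activate showed no common direction: of 11 genes 10 were detected, 5 above a ratio of 1 and 5 below. Cdk1, the kinase of mitosis, listed under its older name Cdc2a in the array annotation, had a signal of 294 with T3 and 277 in control. Cdk4, the partner of D-type cyclins, was at 1007 with T3 and 989 in control, and Cdk2 at 61.4 with T3 and 61.6 in control. A second Cdk2 probe set was lower, at 33.8 with T3 and 39.6 in control, a ratio of 0.852. Apart from it these kinases of the core cycle lay close to 1.

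The kinases at both ends of this group act mainly in transcription or signalling. Cdk10 had the lowest ratio, 0.778, with signals of 135 with T3 and 174 in control, just below the central 95% of ratios of probe sets of like signal (0.802 to 1.25). A second Cdk10 probe set lay on the same side at 0.901. Cdk11b, a kinase tied to transcription and splicing, had the highest ratio at 1.32, with dim signals of 25.3 with T3 and 19.2 in control. Cdk9, which releases paused RNA polymerase, was at 549 with T3 and 517 in control. A second Cdk9 probe set was present only with T3, at 32.0 against an absent 22.4 in control, a ratio of 1.43 from dim signals. Cdk6 was absent on both arrays, at 11.1 with T3 and 3.34 in control, so it has no ratio here.

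Cdk inhibitors spread more widely than any other role group, and the widest values came from dim probe sets. All 8 were detected, with 6 above and 2 below a ratio of 1 and a median log2 ratio of 0.13. With the median over the probe sets of each gene in place of the brightest, 4 lay above and 4 below, with a median of 0.04, and where each gene took its most changed probe set the median was 0.01. Cdkn1c, which encodes the inhibitor p57, had signals of 30.9 with T3 and 17.7 in control, a ratio of 1.75. Probe sets of such low signal ranged from 0.606 to 1.86 in their central 95%, so the ratio of Cdkn1c lay inside the usual spread on these arrays. It has 1 probe set and no second reading.

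Cdkn2a, which encodes the Ink4 inhibitor p16 and, in another frame, the p53 activator Arf, was at the other end with 24.0 with T3 and 35.0 in control. Its ratio of 0.687 stops short of 1.5-fold and lies within the same range. Cdkn2d, another Ink4 gene, was lower in both of its probe sets, at 0.757 and 0.941 times control. The remaining Ink4 genes lay on the other side, Cdkn2b at 1.08 and Cdkn2c at 1.11.

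Among inhibitors with higher signals, Cdkn1b (p27), which holds resting cells out of the cycle, had 466 with T3 and 380 in control. Its ratio of 1.22 lies above the central 95% for bright probe sets, which ran from 0.854 to 1.19. A second, dim Cdkn1b probe set went the other way, present in control at 16.6 and absent with T3 at 12.1, a ratio of 0.730. Cdkn1a (p21), the p53-induced inhibitor, was near equal in both probe sets, at 717 and 278 with T3, against 705 and 298 in control. Cdkn3, a phosphatase that acts on Cdks, had a ratio of 1.11.

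The replicative helicase genes were flat, and its activating partners gave ratios on both sides of 1. Mcm2 to Mcm7, the subunits of the ring loaded at origins, had ratios of 0.942 to 1.07, with 3 above 1 and 3 below. Mcm7 had the highest of these, at 392 with T3 and 366 in control, and Mcm4 the lowest, at 143 with T3 and 152 in control. Mcm2 was at 173 with T3 and 168 in control, and Mcm6 at 203 with T3 and 212 in control.

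Cdc45, which turns the Mcm ring into an active helicase together with the GINS complex, was higher in all 3 of its detected probe sets. The signals were 96.2, 66.4 and 39.2 with T3, against 82.3, 52.6 and 36.3 in control, for ratios of 1.17, 1.26 and 1.08. Gins1, a GINS subunit, had 44.6 with T3 and 36.9 in control, a ratio of 1.21. Other GINS subunits, outside the name rule, were at 1.06 in Gins4 and below control in Gins3, at 21.5 with T3 and 24.4 in control. The Cdc45 and Gins1 probe sets all lay inside the central 95% of probe sets of like signal. The brightest Cdc45 probe set carries the suffix of probes that can also match unrelated sequences. The promoters of Gins1 and Mcm7 shown above both hold E2F words, and their log2 ratios were 0.27 and 0.10. Mcm2, Mcm3, Mcm5 and Mcm6 also hold an E2F word, with log2 ratios of 0.05, 0.02, -0.03 and -0.07. Cdc45, at 0.22, had none in its window. Leaving out genes that only share a name (described below), the median was 0.04 for 10 detected genes with the word and 0.09 for 40 without. Split by the CHR word, the same genes went the other way, with medians of 0.10 for 10 with it and 0.03 for 40 without.

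The genes of replication factor C all lay above control. Replication factor C, the complex of Rfc1 to Rfc5, opens the ring of Pcna and closes it around DNA. The ratios of the 5 genes ran from 1.04 in Rfc4 to 1.27 in Rfc3, with a median log2 ratio of 0.25. All detected Rfc genes also lay above 1 in each alternative, with medians of 0.18 to 0.26, but most alternatives could not change a side. Under the name rule Rfc1 to Rfc4 have 1 detected probe set each, both Rfc5 probe sets lie above 1, and a pseudocount keeps the sign. A further Rfc1 probe set, listed as Recc1 and so outside the name rule, had 105 with T3 and 96.1 in control, a ratio of 1.09. Scalings could change a side, and they gave medians of 0.25 to 0.26. Rfc3 had 78.3 with T3 and 61.6 in control, Rfc2 had 201 with T3 and 169 in control, and Rfc1 had 136 with T3 and 127 in control. In none of the 5 did the brightest probe set lie outside the central 95% of probe sets of like signal.

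For Rfc5 the size depended on the probe set. The brighter one had 130 with T3 and 107 in control, a ratio of 1.22, and the other had 91.6 with T3 and 53.6 in control, a ratio of 1.71. Both pointed upward, but the second was past 1.5-fold and the first was not. Over single probe sets, 4.11% of all those detected were at least 1.5-fold higher and 2.65% lower. Among the 119 detected member probe sets 4 were higher and 1 was lower.

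The clamp itself and the enzymes of nucleotide supply were closer to 1. Pcna, the sliding clamp and a common marker of S phase, had 1073 with T3 and 1017 in control, a ratio of 1.06. Rrm2, the regulated subunit of ribonucleotide reductase, had 984 and 241 in its probe sets with T3, against 827 and 230 in control. The ratio of 1.19 in the brighter one lies just above the central 95% for its signal, and that of the other was 1.05. Rrm1, the large subunit, was at 1.03, although the gene number in the array annotation now belongs to an Rrm1 pseudogene. Tyms, which makes thymidylate, was at 99.0 with T3 and 99.2 in control. Over the group of clamp, loaders and nucleotide supply, 9 of 10 genes lay above 1, with a median log2 ratio of 0.10.

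**Figure D2:**
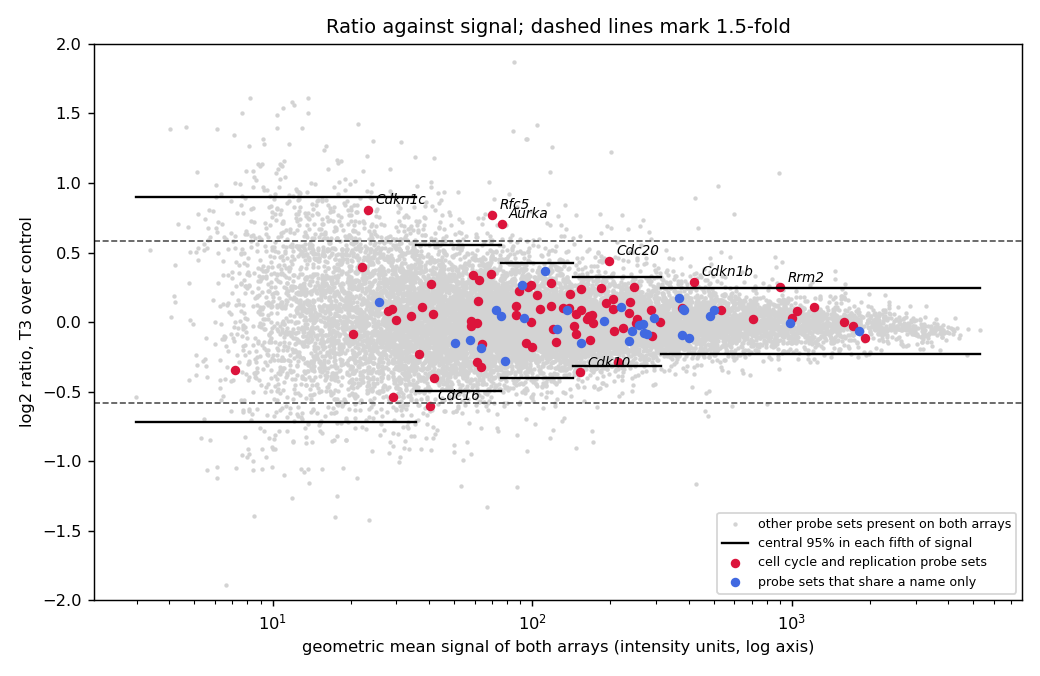
Log2 ratio of T3 over control (y axis) against geometric mean signal (x axis, log scale) for probe sets present on both arrays; red and blue points are the member probe sets, grey points all others, black lines the central 95% of ratios in each of 5 bins of signal, and dashed lines 1.5-fold. Of 113 member probe sets 7 lie outside the black lines, and these are named with Cdkn1c. By construction the lines hold only 95% of all probe sets present on both arrays, so some outside are a matter of course. Some grey points lie outside the plotted range.

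E2F factors, which switch on S-phase genes or, in the case of E2f5 and E2f8, repress them, were represented by 3 genes. E2f1, an activator, had 58.0 with T3 and 57.6 in control. E2f5, a repressor of resting cells, was at 159 with T3 and 175 in control, and E2f8 at 28.7 with T3 and 27.2 in control. None of the 3 differed by more than 1.25-fold.

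Among genes of mitosis, Aurka stood apart from markers of dividing cells that lay near 1. Aurka, the Aurora kinase of the spindle poles, had 97.3 with T3 and 59.6 in control. Its ratio of 1.63 lies above the central 95% of 0.757 to 1.34 for probe sets of like signal. It has 1 probe set, so there is no second reading. Aurkb, the Aurora kinase of the centromere, was near equal at 150 with T3 and 145 in control. Aurkc was present in control at 24.8 and absent with T3 at 21.7.

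The general markers of proliferation Mki67, Top2a and Plk1 lay slightly above a ratio of 1, and other genes of dividing cells lay on both sides. Mki67, which encodes the Ki-67 antigen of cycling cells, had 143 with T3 and 134 in control, a ratio of 1.07. Top2a, the topoisomerase that untangles sister chromatids, had 159 and 105 with T3, against 150 and 88.0 in control, for ratios of 1.06 and 1.19. The Polo kinase gene Plk1 had 168 with T3 and 142 in control, a ratio of 1.18. Of 87 detected cell cycle genes of a separate list, outside the name rule, 55 lay above 1 and 32 below. Among those above were Cdca3 at 1.25, Incenp at 1.21 and Kif11 at 1.19. Others were flat or below 1, with ratios of 1.01 in Tk1, 0.990 in Foxm1, 0.883 in Birc5, 0.876 in Fen1 and 0.866 in Uhrf1. These serve nucleotide supply (Tk1), mitotic transcription (Foxm1), chromosome segregation (Birc5), replication (Fen1) and maintenance of DNA methylation (Uhrf1). Of the spindle checkpoint kinases, Bub1 lay above 1 at 1.08 and Bub1b below at 0.818, with 55.5 with T3 and 67.8 in control. Over the 8 mitotic genes 6 lay above 1, with a median log2 ratio of 0.09.

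Cdc20, the activator of the anaphase promoting complex, gave readings in different directions. The brightest probe set had 231 with T3 and 170 in control, a ratio of 1.36, above the central 95% for its signal. By its suffix this probe set is of a kind that can match transcripts of more than 1 gene. A second one, for transcripts of Cdc20 alone, had 150 with T3 and 130 in control, a ratio of 1.15. Of the dim ones, 1 was present only with T3, at 18.5 against an absent 9.66 in control, a ratio of 1.91. Its suffix marks probes that can also match unrelated sequences. The other was present on both arrays at 6.34 with T3 and 8.05 in control, a ratio of 0.787.

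Subunits of the complex itself showed no common direction, and the median of the group with Cdc25 and Cdc14 ran from -0.09 to 0.07 over the alternatives. Cdc16 was at 219 with T3 and 226 in control in its brightest probe set. A dimmer Cdc16 probe set had 32.8 with T3 and 49.8 in control, 0.659 times control, and is the 1 member probe set past 1.5-fold on the lower side. Cdc23 was read by 3 probe sets with ratios of 1.14, 1.04 and 0.800, and Cdc26 by a pair with ratios of 0.965 and 1.20. Cdc27 was at 60.3 with T3 and 67.4 in control. Cdc25a and Cdc25b, phosphatases that release Cdks, had ratios of 0.982 and 1.03, and Cdc14b was present in control at 17.6 and marginal with T3 at 13.2.

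**Figure D3:**
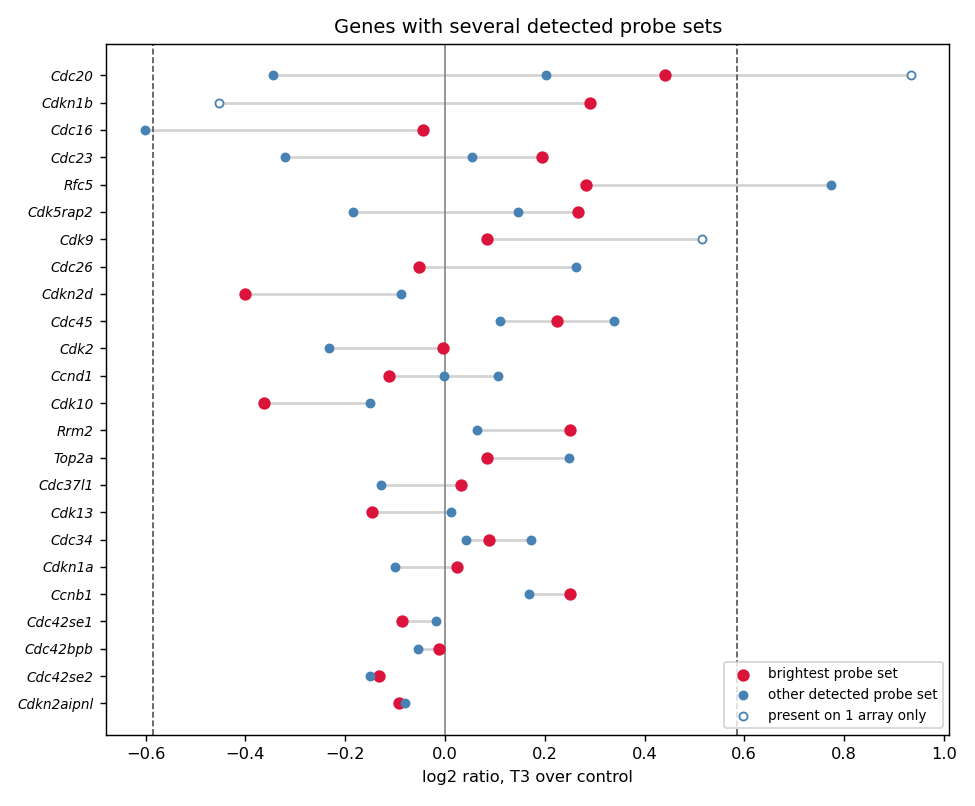
Log2 ratio of T3 over control (x axis) of each detected probe set of 24 genes, with the widest spread at the top. These genes have at least 2 such probe sets under the name rule. Large red points are the brightest probe set, small blue points the others, open points probe sets present on 1 array only, and dashed lines mark 1.5-fold. Cdc20 spans 1.28 on the log2 scale, and in 15 of 24 genes all probe sets lie on the same side of 0.

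In these 24 genes all detected probe sets lay on the same side of a ratio of 1 in 15 (62.5%), above it in 7 and below it in 8. Among all 2481 genes with several detected probe sets the share was 50.9%, with a median spread of 0.21. The 7 genes above 1 throughout were Ccnb1, Cdc34, Cdc45, Cdk9, Rfc5, Rrm2 and Top2a. The 8 genes below 1 throughout were Cdc16, Cdc42bpb, Cdc42se1, Cdc42se2, Cdk2, Cdk10, Cdkn2aipnl and Cdkn2d.

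A further 28 of the 95 genes share a Cdc, Cdk, Cdkn or Aurk name but mostly act elsewhere in the cell, and 23 of these were detected. None was past 1.5-fold, 12 lay above 1 and 11 below, and the median log2 ratio was 0.01. They include Cdc37, a cochaperone of Hsp90 (1776 with T3 and 1853 in control), and Nsa2, a ribosome biogenesis factor listed as Cdk105 (976 with T3 and 981 in control). Pigu, listed as Cdc91l1, which helps attach lipid anchors to proteins, had the highest ratio, 1.29. Of 9 genes for proteins that bind the Cdc42 GTPase 6 lay below 1, Cdc42ep3 lowest at 0.824.

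In this set Cdc34 and Cdk5rap2 do bear on division. Cdc34, the ubiquitin-conjugating enzyme that helps destroy Cdk inhibitors, had ratios of 1.06, 1.13 and 1.03 in its probe sets. Cdk5rap2, a centrosome protein, had ratios of 1.20, 0.880 and 1.11. Without the 28 genes, 42 of 65 detected genes lay above 1, with a median log2 ratio of 0.05.

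The genes without a detected probe set were Ccna1, Cdk6, Cdk107, Cdk2ap1, Cdk5r1, Cdk5r2 and Cdk5rap1. Their signals ran from 0.834 to 11.1 with T3 and from 0.686 to 10.9 in control, all called absent.

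**Figure D4:**
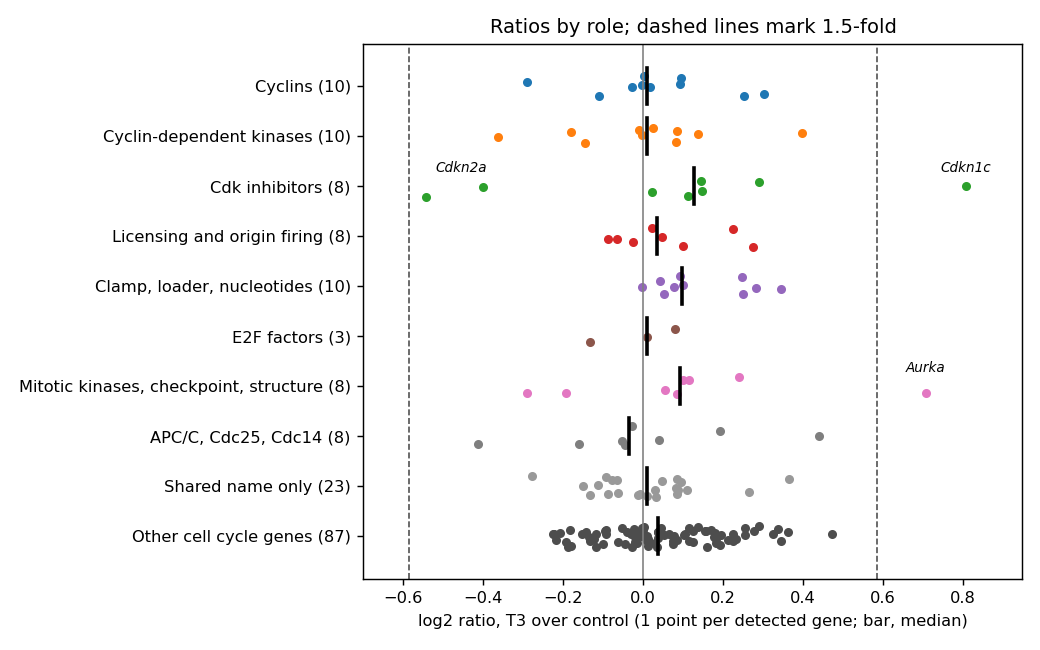
Log2 ratio of T3 over control (x axis) of each detected gene by role (number of genes in brackets), with black bars at the medians and dashed lines at 1.5-fold. The medians run from -0.04 for the anaphase promoting complex with Cdc25 and Cdc14 to 0.13 for the Cdk inhibitors (0.04 with the median over the probe sets of each gene), and 2 genes pass a dashed line.

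Cell cycle genes outside the name rule were described from a separate list of 95, of which 87 were detected. None was past 1.5-fold in either direction, 55 lay above a ratio of 1 and 32 below, and the median log2 ratio was 0.04. The brightest were Btg1, an antiproliferative gene (2206 with T3 and 2268 in control), Skp1, a ubiquitin ligase subunit (2053 with T3 and 2091 in control), and Gadd45a, a gene of growth arrest and DNA damage (1163 with T3 and 1283 in control). The highest ratio was 1.39 in Cenpe, a kinetochore motor, which was only marginal with T3 at 34.1 and present in control at 24.5, and the lowest 0.855 in Ccnl1. Annotation gave another view: 33 of the 88 detected members carried the process term cell cycle, DNA replication, mitosis or cell division, and 22 of these lay above 1. Of 182 detected genes with such a term outside the name rule 84 lay above 1, 3 were at least 1.5-fold higher and 1 was lower, with a median log2 ratio of -0.02.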

How the data were processed

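RNA of hepatocyte cultures was hybridised to 1 array with T3 and 1 control array. They were grouped by sample title, since the treatment note is the same for both and names T3. Per the file headers, the authors deposited a MAS5 signal intensity per probe set after normalization, and Affymetrix Expression Console is the tool in the submitters' processing notes. The authors' deposited detection p-value reached 0.0461 for a present call. The deposited ratio is T3 over control intensity and equalled the quotient of the signals. After 57 array controls were left out, 31038 probe sets were analysed. Log2 ratios were computed with no pseudocount, and a gene counted as past 1.5-fold when its probe set was present on the brighter array. For a probe set present on 1 array only, the ratio is the plain quotient of both signals, 1 of which was not called present. Symbols were updated by gene number through the GRCr8 gene table, and 7 member genes changed name. Central ranges cover 95% of the ratios in 5 bins of signal. The number of arrays limits the precision. Members, role groups and lists were chosen with earlier results of these data known. Genes were named where a probe set was past 1.5-fold, where they were the 3 brightest or the highest or lowest of a role group, where 3 or more probe sets were detected, or where they are standard markers, and others only to complete a group. Process terms and promoter words were chosen after the values were seen. The alternatives were pseudocounts, detection and signal filters, scalings, the series value table and other choices of probe set. Python 3.11.15, pandas 2.3.3, statsmodels 0.14.6 and matplotlib 3.10.9 were used.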

Additional observations from a re-analysis of the deposited data

How the results depend on the processing

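No paired analysis was possible because each group has 1 array. The 2 genes at least 1.5-fold higher, Aurka and Cdkn1c, became 0 with a pseudocount of 16 or 64, where 0.641% and 0.0827% of all genes were higher. The log2 ratio of Aurka was then 0.58 and 0.38. They also became 0 with a filter on mean signal at or above the median (0.322% of all genes). With the probe set of largest change there were 4 (3.81% of all genes) and with every detected probe set 4 (2.91% of all probe sets with a gene name), which added Cdc20 and Rfc5. The 0 genes lower became 1 with quantile normalization (Cdkn2a) and 1 with the probe set of largest change or every detected probe set (Cdc16). Without a detection filter 4 were lower, all absent on both arrays (Ccna1, Cdk107, Cdk2ap1 and Cdk5r2), and 3 higher (Aurka, Cdk6 and Cdkn1c), beside 7.78% lower and 11.1% higher of all genes. Applying the name rule to current symbols, chosen after seeing the data, also gave 1 lower gene, Chtf8, a partner of Chtf18 in an alternative clamp loader. Its brightest probe set was at 0.533 times control (108 with T3 and 202 in control). A dimmer Chtf8 probe set was also lower, absent with T3 at 11.4 and present in control at 34.1, and another was absent on both arrays. Pseudocounts shrink the ratios of dim probe sets by construction. The signal filter left out Aurka and Cdkn1c, whose mean signals lay below the median, and did not change their ratios. The added calls of Cdc20, Rfc5 and Cdc16 came from probe sets other than the brightest. Other causes were not tested. The medians of the members and of the other cell cycle genes moved by less than 0.05 and kept their sign in the alternatives run. The share of higher among all calls was 62.5%, and 52.9% after quantile normalization. Of 392 alternative log2 ratios of the 49 named genes, 349 moved by less than 0.1 with the same sign. This count includes ratios that could not move. The series value table gave the same values for all 49, and a gene with 1 detected probe set is unaffected by the choice of probe set. Of the 49 genes 13 moved with a pseudocount of 64. With the median over probe sets 11 moved, and with the probe set of largest change 10. Dim signals limit Cdkn1c, Cdkn2a and Cdk11b most.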
